A study of Mus musculus with 56 samples.

Results

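The cytosolic ribosomal protein genes were 86 protein-coding genes of the 47069 gene rows in the count table. They were taken by name: mouse symbols that start with *Rpl* or *Rps* and a digit, with *Rplp0*, *Rplp1*, *Rplp2* and *Rpsa*, and without pseudogenes and the *Rps6k* kinases. The name rule gave 52 genes of the large subunit and 34 of the small subunit. It also took in 9 genes that are paralogs of a ribosomal protein gene or only carry a similar name (*Rpl3l*, *Rpl7l1*, *Rpl10l*, *Rpl22l1*, *Rpl36al*, *Rpl39l*, *Rps27l*, *Rps27rt* and *Rps19bp1*, which encodes a protein that binds the Rps19 protein), so that 77 were ribosomal protein genes in the strict sense.

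The ribosome translates messenger RNA into protein. Its small subunit holds the messenger RNA and reads the code, and its large subunit joins the amino acids. Each ribosome carries about equal numbers of most ribosomal proteins, and the genes that encode them are among the most active in nearly every cell, which is why they often serve as reference genes. The hormone-secreting cells of the anterior pituitary devote much of their messenger RNA to a few secreted products such as prolactin (*Prl*), growth hormone (*Gh*) and pro-opiomelanocortin (*Pomc*).

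Single cells (SCs) came from whole pituitaries of female, randomly cycling C57BL/6 mice aged 10 to 12 weeks, pooled from 5 pituitaries per sample. The dissociated cells were kept untreated in culture for 4 days, trypsinized and put in RNA-Best, a buffer that stabilizes RNA in whole cells. They were then passed through a 10-µm filter and captured on a Fluidigm C1 chip made for small cells, and full-length cDNA was made with SMART-Seq v4, with spike-in RNA added to each chamber. The 56 libraries, named here by plate well, form 1 group with no labelled animals or cultures, so that no value has a replicate check and no test was made.

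Values are counts scaled to a sum of 1000000 over all genes of a well, without spike-ins (CPM), and 46 wells with 100000 or more gene counts were used. In these wells gene counts ranged from 111195 to 12563300 with a median of 1192620, and spike-ins took 0.144% to 66.1% of all counts. *Prl*, *Gh* and *Pomc* were at 1 CPM or more in all 46 wells, *Cga* in 43, *Lhb* in 33, *Tshb* in 23 and *Fshb* in 2. Of the pituitary factors, *Pou1f1* was detected in 42 wells, *Tbx19* in 14 and *Nr5a1* in 6. Of the markers of other cells, the summed CPM over wells was 0 to 8855 for 5 endothelial genes, 0 to 449 for 6 macrophage genes, 0 to 512 for 5 fibroblast genes (*Col1a1* and *Lum* at 0 in every well), 0 to 71.5 for 3 stem or folliculostellate genes (*Sox2* at 0 in every well) and 0 to 146551 for 4 globin genes. The part of such cells or of their RNA in the values below was not tested. Wells C10 and C11 were closely alike across the ribosomal protein genes, as described below, and the main results over all wells and over the set of wells that holds them were also taken without them.

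*Rps25* served the study as a house-keeping gene in its quantitative PCR, so the primers that define its amplicon are shown first. They were located by exact match in the GENCODE M21 transcripts, build GRCm38. *Rps25* lies on chr9:44407139-44410427, plus strand, and its primers span 73 bases, from base 785 to base 857 of the longest of its best-supported transcripts. Each primer is given in its own direction of synthesis.
Rps25 forward primer: aagctctgtaaggaggttccgaa
Rps25 reverse primer: cgcgaatcttcagtctctca

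Copies of these genes elsewhere in the genome bear on every count, and *Rps27* is the clearest case. *Rps27* on chr3:90212522-90213651 and *Rps27rt* on chr9:114982366-114982739, both on the minus strand, have coding sequences of 255 bases with 0 differences, and their transcripts share an identical run of 341 bases. *Rps27l* on chr9:66946086-66949516, plus strand, has a coding sequence of the same length with 61 differences. The same 30 coding bases of the 3 genes are shown, with the bases that differ from *Rps27* in capitals.
Rps27: gacgtgaaatgcccaggatgctataaaatc
Rps27rt: gacgtgaaatgcccaggatgctataaaatc
Rps27l: gaTgtgaaatgTccaggTtgctaCaaGatT

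Counted from the first base shown, the 6 substitutions of *Rps27l* are C3T, C12T, A18T, T24C, A27G and C30T. Reads of *Rps27* and *Rps27rt* could therefore not be told apart over nearly their whole length. *Rps27* was 5.12 times *Rps27rt* in the median well on the CPM scale, and their Spearman correlation over the 46 wells, 0.95, was the highest of all 3403 pairs of members. The correlation of *Rps27* with *Rps27l* was 0.06. Across the 83 members with a mean of 10 CPM or more, 79 held at least 1 stretch of 50 bases that also occurs in a transcript of another gene, and in 33 such stretches made up over 50% of the transcript. For 77 of them, counts were not whole numbers in at least 23 of the 46 wells, so that some reads had been counted as fractions. How these fractions were set is not given in the sources used here. The level of a single member is thus uncertain where copies can take up its reads.

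The ribosomal protein genes together took 3.94% of gene counts in the median well (SD 2.48 percentage points over 46 wells). The lowest share was 1.14% in well B3 (exact Clopper-Pearson 95% interval 1.11% to 1.17%) and the highest was 11.5% in well H7 (11.4% to 11.5%). In 24 wells the share lay between 3% and 5%, and in 4 wells (A10, C7, E7 and H7) it was above 10%. These intervals cover the counting of reads only, which here is far smaller than the difference between wells. The 273 rows of *Rpl* and *Rps* pseudogenes took another 0.636% of gene counts in the median well, and their share followed that of the members over the wells with a Spearman correlation of 0.91. Pseudogene reads and member reads come from the same libraries and can be exchanged by alignment.

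**Figure D1:**
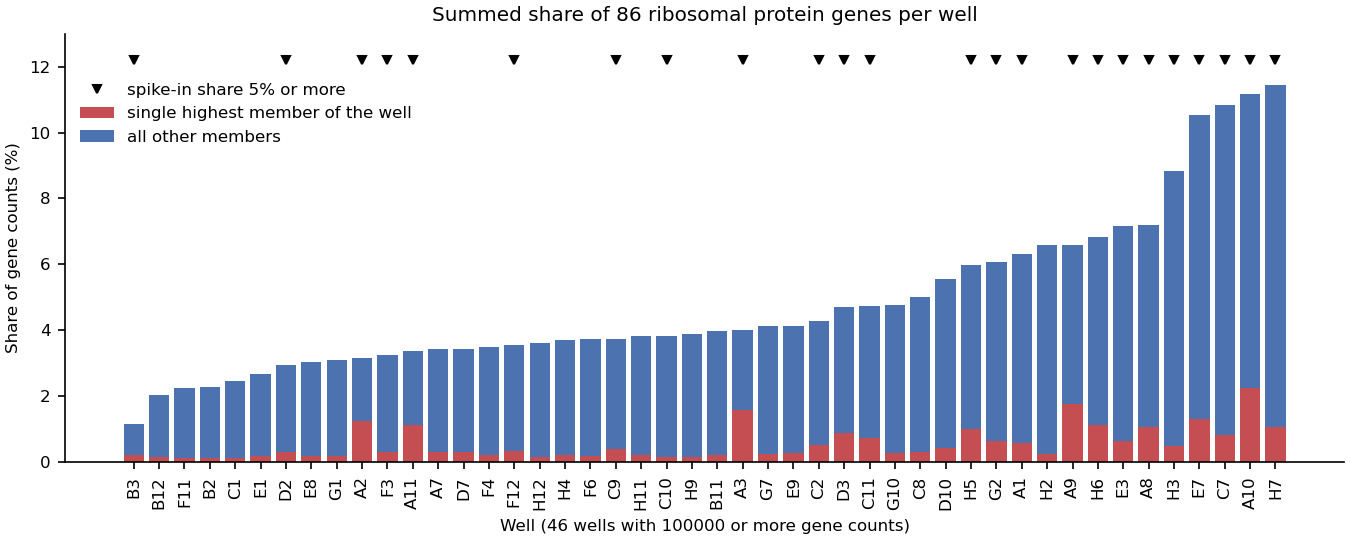
Summed share of gene counts of the 86 ribosomal protein genes in each of 46 wells, in percent, ordered from lowest (1.14%, B3) to highest (11.5%, H7). The red part of each bar is the single highest member of that well and the blue part all other members; triangles mark the 24 wells with a spike-in share of 5% or more, and the 9 highest bars are all among them.

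Spike-in share split the wells into 22 below 3% and 24 above 5%, with no well between 2.87% and 5.89%; the split at 5% was chosen after the values were seen. Spike-ins go into each chamber at a set amount, so that their share is high where a chamber gave little other RNA. Gene counts had a median of 4630410 in the first set and 449666 in the second. The summed share was 2.04% to 6.58% (median 3.66%, SD 1.10) in the 22 wells with few spike-in reads and 1.14% to 11.5% (median 5.36%, SD 2.90) in the 24 with many. The range of the 22 lay inside that of the 24. Without C10 and C11, which belong to the 24, the median there was 6.02%. Mitochondrially encoded genes took 0.185% of gene counts in the median of the 22 wells (0.0513% to 1.26%) and 0.469% in the median of the 24 (0.120% to 1.58%). Globin genes had a median of 31.1 CPM (0 to 146551) and 708 CPM (7.79 to 12460). The part of depth, RNA quality and other cells in the difference was not tested.

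How evenly the sum was spread over its genes differed more than the sum itself. In the 22 wells with a spike-in share under 5%, 15 to 23 members (median 18) were needed to reach 50% of the summed counts, and the highest single member took 3.34% to 8.76%. In the other 24 wells, 2 to 20 members (median 8) were enough, and the highest member took 3.91% to 39.5%. *Rps14* alone took 39.5% in A3, *Rpl41* 39.1% in A2 and *Rplp1*, a stalk protein of the large subunit, 33.4% in A11. Wells C10, F12, F3 and H7 were exceptions: their spike-in share was over 5%, and 17 to 20 members were needed. Thinned to 100000 counts in every well, the median number was still 18 in the first set and 8 in the second. Over all 46 wells, the number needed had a Spearman correlation of −0.67 with spike-in share (−0.72 without C10 and C11) and 0.67 with gene counts, which come from the same libraries.

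The same contrast appeared when the sum was set against a typical member. With a spike-in share under 5%, the summed share and the median CPM over the 86 members had a Spearman correlation of 0.91 over 22 wells. With 5% or more it was 0.31 over 24 wells (0.36 without C10 and C11). Well A10 had one of the highest sums (11.2%) with a median member at 49.3 CPM, and A1 had a sum of 6.31% with a median member at 21.3 CPM, the lowest of all 46 wells. The plot of sum against typical member shows both. A lower median CPM in the 24 wells was found for 79 of 83 members (95.2%, beside 60.8% of all 7959 genes with a mean of 10 CPM or more) and for 94.9% of the 79 members with a mean of 100 CPM or more, beside 86.5% of all 1421 such genes. The median difference of log2(CPM + 1) was −0.98 over the 79 members and −1.60 over the 1421 genes, so a lower median was common to genes at this level.

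**Figure D2:**
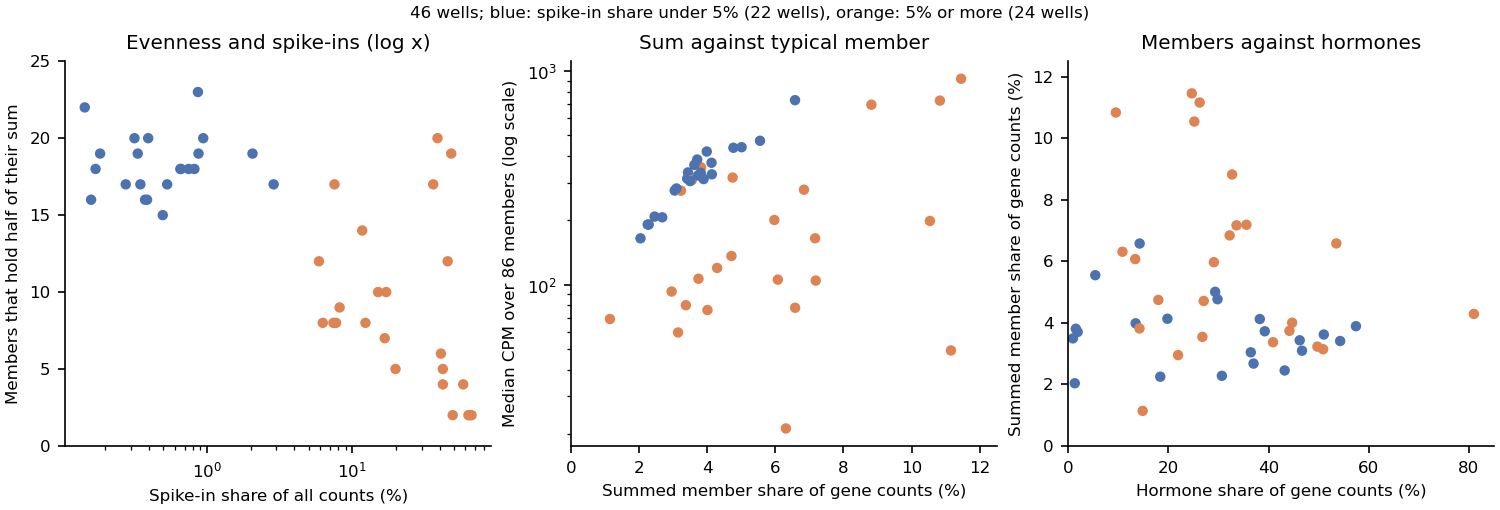
Each point is 1 of 46 wells (blue, spike-in share under 5%; orange, 5% or more). Left, the number of members that reach 50% of the member sum against spike-in share in percent (log axis): blue wells sit at 15 to 23 and orange wells at 2 to 20. Middle, the median CPM over 86 members (log axis) against their summed share in percent. Right, summed member share against the summed share of 7 hormone genes, both in percent of gene counts, with no clear trend.

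Of the 86 members, 83 had a mean of 10 CPM or more over the 46 wells. *Rpl10l* and *Rpl39l*, which are paralogs known from testis, were at 0 in all 46 wells, and *Rpl3l*, the paralog known from heart and skeletal muscle, reached 1 CPM in 1 well only (14.9 CPM in H2). A count of 0 allows up to 3 counts of a well's total. At 1 CPM or more, 74 members were detected in every well. This was 89.2% of the 83 with a mean of 10 CPM or more, beside 8.90% of all 7959 genes at that level. With a mean of 100 CPM or more it was 93.7% of the 79 members, beside 40.3% of all 1421 genes. A gene with a median near 0 can pass the mean limit through 1 high well, so backgrounds and members are not on equal terms. In wells under 1000000 gene counts, 1 CPM is less than 1 count, and *Rpl39* in E7 passed with 0.33 counts. A limit of 1 count gave 77 members, and thinning every well to 100000 counts gave 53 (63.9% of 83). No background was taken at these settings.

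Levels of different genes were compared as CPM per kilobase of the principal transcript. *Rpl41*, whose product is the smallest protein of the ribosome, had the highest median, 3182 CPM per kb, and was the top member in CPM in 20 of the 46 wells. On the CPM scale it was 258 in its lowest well (A3), 1852 in the median well and 16200 in its highest (A9). *Rps18* (1790 CPM per kb), *Rps14* (1778), *Rps27* (1510), *Rplp1* (1180), *Rps29* (1144), *Rpl37a* (1050), *Rpl36* (901) and *Rps15* (885) were also among the 10 highest. The spread of each gene over wells, shown by its quartiles, was wider than the steps between neighbours in this order. Of the 10 highest, 7 stayed among the 10 highest when the length of all exons of a gene was used.

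At the low end of the detected genes were *Rpl7l1* (7.19 CPM per kb), *Rps19bp1* (9.53), *Rpl22l1* (18.4), *Rpl22* (35.8), *Rps15a* (38.7), *Rps20* (47.8) and *Rps24* (70.4). The first 3 belong to the paralogs and similarly named genes. The principal transcripts of *Rps15a* and *Rps20* are 5179 and 3706 bases long, far longer than most of the family, so their per-length order depends on which transcript the cells used. The 3 members at 0 in the median well, *Rpl3l*, *Rpl10l* and *Rpl39l*, complete the 10 lowest.

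**Figure D3:**
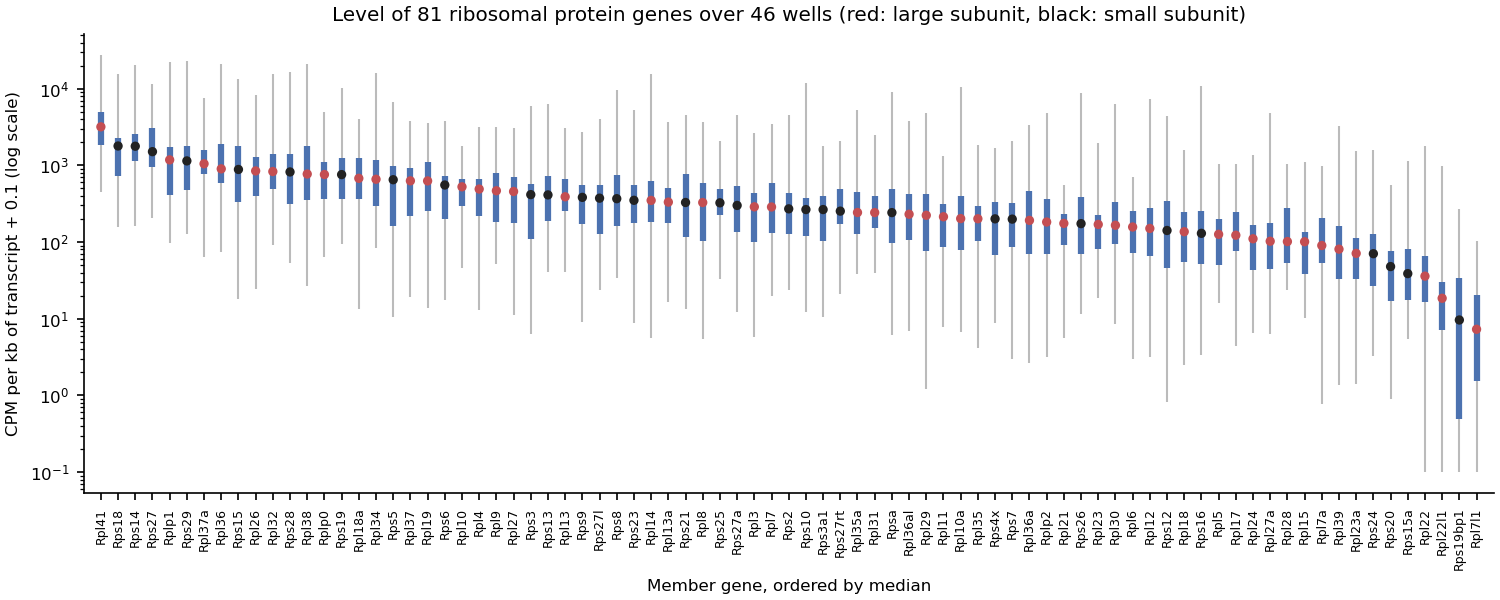
Level of each of 81 ribosomal protein genes in CPM per kilobase of transcript plus 0.1 (log axis), ordered by median. Points are medians over 46 wells (red, large subunit; black, small subunit), thick blue lines run from the lower to the upper quartile and thin grey lines from the lowest to the highest well; medians fall from 3182 for *Rpl41* to 7.19 for *Rpl7l1*.

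Among the paralogs, *Rpl36a* and *Rpl36al* were at similar levels (191.7 and 230.6 CPM per kb), with *Rpl36al* higher in 25 of 46 wells and a Spearman correlation of 0.79 between them, the third highest of all pairs. The transcript of *Rpl36a* shares 85.5% of its stretches of 50 bases with other genes. *Rpl22l1* was higher per kilobase than *Rpl22* in 16 of 46 wells, and the correlation between those genes was −0.07. *Rpl7l1* was below *Rpl7* (286.6 CPM per kb) in all 46 wells. *Rpl3*, *Rpl10* and *Rpl39* were at 288.0, 525.4 and 80.7 CPM per kb where their paralogs were at 0 in the median well. *Rps27l*, a gene known as a target of p53, was at 374 CPM per kb and above *Rps27* in 3 wells. *Rps27a*, which encodes ubiquitin joined to a ribosomal protein, was at 300.3 CPM per kb.

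The spread over wells, as the SD of log2(CPM + 1), had a median of 1.64 over the 83 members. It was 2.29 over all 7959 genes with a mean of 10 CPM or more and 2.25 over the 1421 with 100 CPM or more. *Rpl10* had the smallest spread (SD 1.25, 39.1 to 1552 CPM), then *Rps25* (1.26), *Rps27* (1.34), *Rpl28* (1.37) and *Rpl15* (1.38). *Rps19bp1* (2.38), *Rpl7l1* (2.32), *Rps12* (2.23), *Rpl29* (2.10) and *Rpl22* (2.09) had the largest.

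Within the 22 wells with a spike-in share under 5% the spread of the ribosomal protein genes was much smaller. The median SD over the 83 members was 0.86 there and 2.02 in the other 24 wells. Over all 1421 genes with a mean of 100 CPM or more it was 2.16 and 2.13, and over the 7959 genes with 10 CPM or more it was 2.53 and 1.97. The lower quartile over the 1421 genes was 1.20 and 1.81, so that part of them was also tighter in the 22 wells. Without C10 and C11 the members' median in the 24 wells was 2.10. A smaller SD in the 22 wells was found for 80 of 83 members (96.4%, beside 33.4% of the 7959 genes). With 100 CPM or more it was found for 78 of 79 members (98.7%, beside 53.6% of the 1421 genes). Members and other genes are not on equal terms here either, since the backgrounds passed the same limit on the mean. Thinning every well to 100000 counts gave 0.92 and 2.13 for the members. Gene by gene, the median SD in the 22 and the 24 wells was 1.94 and 2.02 for 16 translation genes, 2.91 and 1.99 for 14 ribosome biogenesis genes and 2.70 and 2.04 for 74 mitochondrial ribosomal protein genes. The summed shares of these lists were all less spread in the 22 wells (SD 0.147, 0.0771 and 0.158 percentage points) than in the 24 (0.485, 0.167 and 0.426).

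*Rpl13a*, itself a common reference gene, was the steadiest in the 22 wells, at 244 CPM in the lowest, 385 in the median and 870.0 in the highest well. *Rpl10* ran from 250.3 through 505 to 971 CPM there, and *Rplp0*, a further common reference gene, from 666 through 1260 to 2346 CPM. In the other 24 wells the same 3 genes ran from 17.0 to 3910, from 39.1 to 1552 and from 86.3 to 6690 CPM. Each gene thus spread from under 4-fold to over 30-fold between the sets. At the other end in the 22 wells stood *Rps19bp1* (SD 2.87), *Rpl7l1* (2.40), *Rpl7a* (2.15), *Rps12* (1.82) and *Rpl22l1* (1.70), and *Rpl7a* and *Rps12* each fell below 1 CPM in 1 of these wells.

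*Rps25*, the reference gene of the quantitative PCR, ranged from 41.8 CPM (A10) through a median of 416 to 2648 CPM (A1) over the 46 wells, and its SD of 1.26 was the second smallest of 83. In the 22 wells with few spike-in reads it ran from 198 through 493 to 1300 CPM, with an SD of 0.70, and 16 members had a smaller SD there. In the other 24 wells it ran from 41.8 through 359 to 2648 CPM, with an SD of 1.62. The ranges of the sets overlapped, and that of the 22 lay wholly inside that of the 24.

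Single wells far from a member's own median were counted after the median deviation of all 86 members had been taken off each well. In at least 1 well, 76 of 83 members were 8-fold or more above their median (91.6%, beside 95.2% of all 7959 genes treated the same way) and 48 were 8-fold or more below (57.8%, beside 52.2%). As measured, without taking off the well's median, 64 members were above (77.1%, beside 93.4%) and 74 below (89.2%, beside 38.9%). A gene can be that far below its median only where the median is well above 0, so the same shares were taken at a mean of 100 CPM or more. There, 88.6% of the 79 members were below as measured, beside 86.6% of all 1421 genes, and 75.9% were above, beside 81.8%. After the well's median was taken off, 57.0% of the members were below, beside 84.7% of all genes, and 91.1% above, beside 87.0%.

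After the well's median was taken off, 189 of 193 values 8-fold or more above were in the 24 wells with a spike-in share of 5% or more. A1 alone held 35, G2 23, A10 16 and C9 14. The median deviation taken off there was −2.17, −1.39, −2.60 and −1.30 on the log2 scale, which raised the values of these wells. Some were well under 8-fold as measured, such as *Rplp0* in A1 at 1.86-fold. The split between the 22 and the 24 wells was not taken as measured. The 4 others belonged to *Rps19bp1* (wells A7, B2 and E1) and *Rpl7l1* (G7). After the removal, no ribosomal protein gene in the strict sense was thus 8-fold above its median in any of the 22 other wells. As measured this did not hold. *Rps24* reached 1080 CPM in the highest of the 22 wells against a median of 114 over all wells used. *Rpl39* reached 464 CPM there against 49.4, and both were more than 8-fold above. Counted by gene after removal of the well's median, 2 of 83 members were 8-fold above in at least 1 of the 22 wells (2.41%, beside 78.1% of the 7959 genes). In at least 1 of the 24 wells, 75 were (90.4%, beside 85.5%). At a mean of 100 CPM or more, again after this removal, 0 of 79 members were above in the 22 wells, beside 48.9% of the 1421 genes. In the 24 wells 91.1% were above, beside 75.3%. Of all values 8-fold above, 97.9% of those of the 83 members and 47.5% of those of the 7959 genes were in the 24 wells. Members and other genes do not stand on equal terms in these comparisons. A gene with a median near 0 can pass the mean limit through 1 high well, and then lies 8-fold above there. The median taken off each well was also that of the members themselves. Of 89 low values, 61 were in the 24 wells (68.5%, beside 43.8% of the low values of the 7959 genes), with 21 in H3, 14 in A1 and 12 in C7. At a mean of 100 CPM or more it was 77.1%, beside 46.5%. The median deviation taken off was 1.18 in H3 and 1.60 in C7, which lowered their values. *Rpl8* in C7, for example, was at 0.287 of its median as measured.

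**Figure D4:**
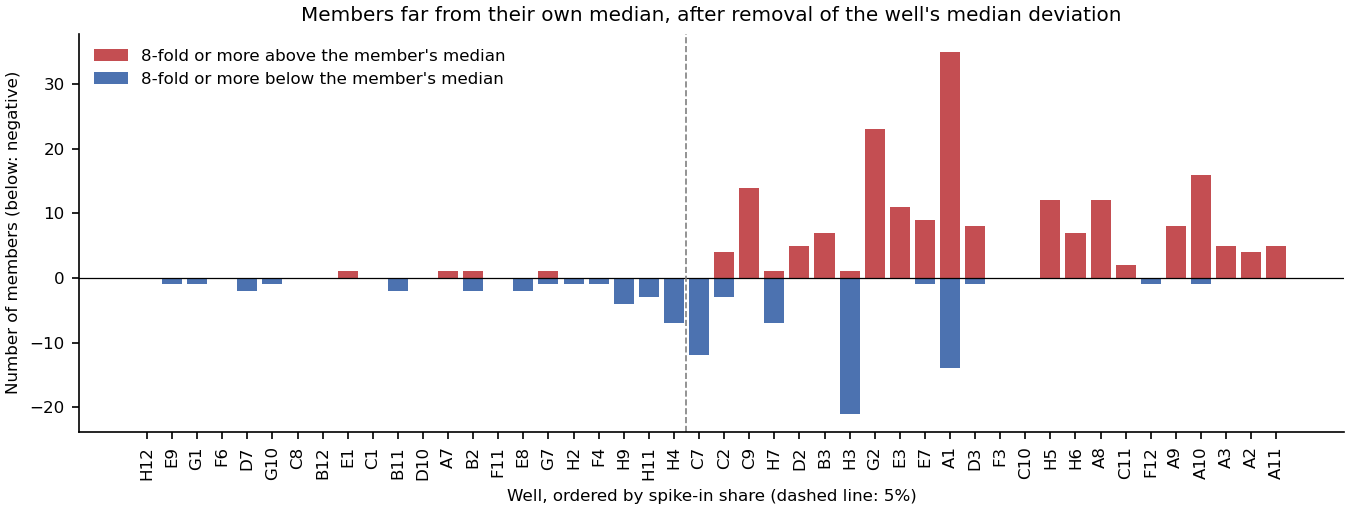
Number of the 83 ribosomal protein genes in each of 46 wells that were 8-fold or more above (red, upward) or below (blue, downward as negative numbers) their own median, after the well's median deviation was removed. Wells are ordered by spike-in share, with the dashed line at 5%; 4 of the 193 high values and 28 of the 89 low values lie to its left.

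Of the 10 values furthest above after this removal, 9 are given here as measured, in CPM and as a fold of the gene's median. They were *Rps16* in A9 (11870 CPM, 82.4-fold) and, in A10, *Rpl22l1* (547 CPM, 53.9-fold), *Rpl10a* (7678 CPM, 52.1-fold), *Rpl27a* (5645 CPM, 47.6-fold) and *Rpl14* (15558 CPM, 44.2-fold). The value of *Rpl22l1* rested on 69.8 counts. *Rpl30* in A11 (38.7-fold), *Rplp2* in A10 (26.2-fold), and *Rpl35a* (21.5-fold) and *Rpl23a* (21.4-fold) in A10 were the others. The 9 values belonged to 9 different genes, and 7 of them came from A10. The median deviation taken off in A10 was the lowest of all wells used (−2.60 on the log2 scale), which raised its place in this order. As measured, *Rps26* in H6 (50.4-fold), *Rpl12* in A8 (49.5-fold), *Rpl22* in H5 (49.5-fold) and *Rps10* in A8 (45.2-fold) were higher than several of the 9.

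Among the 10 values furthest below were *Rpl29* in H7 (0.808 CPM against a median of 164), *Rpl18* in H7 and in H3 (9.19 and 7.20 CPM against 408) and *Rps12* in B11 (0.423 CPM against 82.6). B11 was among the deeper wells, and 2.00 of its counts were of *Rps12*. *Rpl7a* in H3 and H9 (1.62 and 0.625 CPM against 82.3), *Rpl3* in H3 (11.4 against 389), *Rps4x* in H7 (8.50 against 195.7) and *Rpl36al* in H3 (8.76 against 294) were among them too. H7 and H3 had high summed shares, 11.5% and 8.82%, beside these low values. The median deviation taken off was 1.73 in H7 and 1.18 in H3, which lowered their values in this order. As measured, *Rpl36a* in H4 (0.0134 of its median) and *Rps7* in B2 (0.0143) lay below some of the values named.

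Wells C10 and C11 had the most alike ribosomal protein profiles of all 1035 pairs of wells. The median absolute log2 ratio over the 83 members was 0.21 between them, 0.32 in the next pair (F6 and G1) and 1.66 over all pairs, and 77 of the 83 members were within 2-fold. Both had spike-in shares above 38%. Yet 3 genes differed widely: *Rps15a* had 145 counts in C10 and 2655 in C11, *Rps28* 218 and 3305, and *Rpl23* 76.3 and 695. With them, the member share was 3.82% in C10 and 4.74% in C11 and the ratio of large to small subunit sums 1.54 and 0.82. Without these 3 genes the shares were 3.72% and 3.28% and the ratios 1.61 and 1.54.

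**Figure D5:**
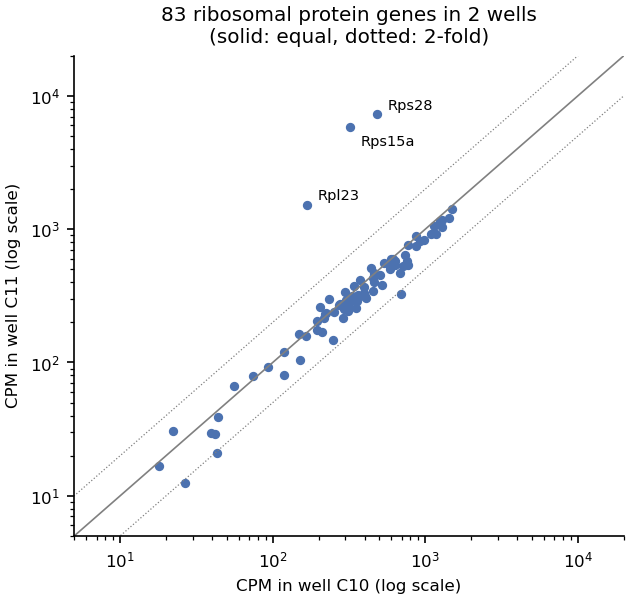
CPM of 83 ribosomal protein genes in well C11 against well C10 (both log axes). The solid line is equality and the dotted lines are 2-fold; 77 genes lie within 2-fold, and *Rps15a*, *Rps28* and *Rpl23* lie 18.2-fold, 15.1-fold and 9.07-fold above equality.

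The large-subunit sum was 1.29 times the small-subunit sum in the median well (SD 0.333) on the CPM scale, where 52 genes stand against 34, and it was above 1 in 42 of 46 wells. It ran from 0.82 in C11 to 2.65 in H5. In the 22 wells with few spike-in reads the range was 1.05 to 1.65, and in the other 24 it was 0.82 to 2.65. The sums of the subunits had a Spearman correlation of 0.82 over the 46 wells.

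Pairs of members moved together only loosely. The Spearman correlation of log2(CPM + 1) over 46 wells had a median of 0.28 over 3403 pairs and ran from −0.33 to 0.95, with 312 pairs above 0.5 and 199 below 0. After *Rps27* with *Rps27rt*, the highest were *Rpl15* with *Rps28* (0.81) and *Rpl36a* with *Rpl36al* (0.79). All values of a well share its total, its depth and its amplification. The median over pairs was 0.29 in the 22 wells and 0.26 in the other 24.

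The hormone share, summed over *Prl*, *Gh*, *Pomc*, *Cga*, *Lhb*, *Fshb* and *Tshb*, ran from 0.923% in F4 to 81.0% in C2 with a median of 29.6%. Its Spearman correlation with the member share was −0.16 over 46 wells (−0.15 without C10 and C11). Both shares are parts of the same total. With the 7 hormone genes left out of the total, the member share was 6.44% in the median well (1.34% in B3 to 22.6% in C2) and its correlation with the hormone share was 0.38. In plate columns 1 to 3 and 7 to 9 (29 wells) the correlation of the original shares was −0.33, and in columns 4 to 6 and 10 to 12 (17 wells) it was 0.18. It was −0.16 in the 22 wells with few spike-in reads and −0.21 in the other 24, and no direction held across these choices.

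Other genes of the translation machinery were described from fixed lists. Among ribosome genes that the name rule leaves out, *Fau*, which encodes a ribosomal protein joined to a ubiquitin-like protein, had a median of 529 CPM and an SD of 1.11, smaller than that of any of the 83 members. *Rack1*, a scaffold on the small subunit, had a median of 457 CPM and a Spearman correlation of 0.82 with the median member. For 16 genes of a list of translation factors and similarly regulated mRNAs, the correlation with the median member ran from 0.03 for *Eif3e* to 0.75 for *Tpt1*, with a median of 0.34. The same correlations were not summarized over all genes, so the lists have no background here. *Eef1a1*, the elongation factor that brings transfer RNA to the ribosome, was at 1565 CPM.

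The summed translation list took 0.515% of gene counts in the median well. Its Spearman correlation with the summed member share was 0.01 over 46 wells, 0.59 over the 22 wells with few spike-in reads and −0.02 over the other 24 (0.01 without C10 and C11). Against the median member in place of the sum it was 0.52, 0.55 and 0.52. Of 16 ribosome biogenesis genes, 2 were detected in every well (*Ncl* and *Nop10*). For the 14 with a mean of 10 CPM or more, correlations with the median member ran from −0.08 to 0.54, with a median of 0.20. Of 78 mitochondrial ribosomal protein genes, 74 had a mean of 10 CPM or more and 6 were detected in every well. Correlations of the 74 with the median member ran from −0.38 to 0.68, with a median of 0.21. Those of the 6 hormone genes with a mean of 10 CPM or more ran from −0.08 for *Prl* to −0.43 for *Gh*.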

How the data were processed

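The authors deposited 1 table of expected counts, here each estimated count being the reads assigned to a gene or spike-in in 1 of 56 wells, with no scaling to depth. The submitters' processing notes list STAR 2.5.1b, featureCounts 1.5.0-p1 and mm10. The study names GENCODE release M8 for its bulk RNA-seq. For the SC libraries, the annotation release, the strand setting and the handling of reads with several places are not given in the sources used here, and 33.5% of values above 0 were not whole numbers (tolerance 1e-09). No columns were without a sample. Symbols, gene types, coordinates and transcripts came from GENCODE M21 (GRCm38), matched on the identifier, for 46488 of 47069 gene rows.

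CPM was the count divided by the sum over gene rows, without the 92 spike-ins, times 1000000. Wells under 100000 gene counts (10 of 56) were left out. The principal transcript was the best supported one in the annotation, the longest in case of a tie. Logs were log2(CPM + 1). A member was called in a well at 8-fold from its median after removal of the well's median deviation over members. The labels name no separate animals, cultures or chips, so the wells were treated as 1 sample, and differences and correlations are descriptions without tests, and exact Clopper-Pearson 95% intervals cover counting error only. SMART-Seq reads carry no molecular identifiers, and doublets were not called. A gene whose reads overlap another gene may carry that gene's reads: 20 members overlap another protein-coding gene and 30 hold 59 small nucleolar RNA genes.

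The members and lists were chosen with earlier results of these data known. The named genes are the 10 highest and 10 lowest members by CPM per kb of transcript, the 5 smallest and 5 largest SDs, the reference gene of the quantitative PCR, the 10 furthest values in each direction, the paralog pairs, the non-members most and least like the member sum and the genes of the lists; a few genes that this rule names are not reported here. Genes named from the 22 and 24 wells split at a spike-in share of 5%, from wells C10 and C11, from the pairs of members, as highest in a well and as most like the median member were named after their values were seen. Alternatives changed the wells, scaling, depth, members, pseudocount (0.1 or 10), detection limit, fold (4 or 16) and type of correlation. Simulated counts with known jumps served to test the scripts, which ran under Python 3.11.15. Their libraries were pandas 2.3.3, matplotlib 3.10.9, numpy 2.4.6 and scipy 1.17.1.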

Additional observations from a re-analysis of the deposited data

Results flagged for a closer look

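The 10 wells under 100000 gene counts entered no result above, yet each held more ribosomal protein reads than the limit that a count of 0 allows (3 counts, at most 0.841% of a well's total). With exact 95% intervals, the summed share was 7.31% (7.14% to 7.48%) in A6, 4.13% (3.88% to 4.39%) in B4, 6.97% (6.67% to 7.28%) in B5 and 1.98% (0.792% to 4.00%) in B6, which had 357 gene counts. It was 4.81% (4.41% to 5.24%) in D11, 5.76% (5.62% to 5.91%) in D12, 3.86% (3.62% to 4.11%) in D4, 5.89% (5.68% to 6.11%) in D5, 4.51% (4.35% to 4.67%) in E6 and 3.80% (2.93% to 4.82%) in H10. Their median share was 4.66%, and the range lay within that of the 46 wells used. *Rpl41* alone made up 51.6% of the member counts in B5 and *Rpl19* 31.1% in A6. The spike-in share was 2.43% in H10 and 21.2% to 74.9% in the others.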

How the results depend on the processing

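Of 125 alternative values, 98 moved by less than a limit set for each result or stayed within 1.5 times a count. The limit was the SD between wells for the summed share (2.475 percentage points), the subunit ratio (0.333) and the number of members that reach 50% of the sum (6.325). For the summed share this was wide beside its value of 3.94%. Other results had limits of another kind, such as 0.0825 for the SD of the log2 sum and 0.112 for the median SD of members. Scaling to genes other than the hormones moved the summed share to 6.44%, the SD over wells of its log2 sum from 0.69 to 0.78, and the correlation with hormone share from −0.16 to 0.38. That correlation also became positive with Pearson on log2 values (0.068) and in plate columns 4 to 6 and 10 to 12 (0.18), and was −0.33 in the other columns. In columns 4 to 6 and 10 to 12 the SD of the log2 sum was 0.57, the median SD of members 1.35, and 35 and 13 members were 8-fold above and below. With wells of 1000000 or more counts the median SD was 1.504 and 49 members were 8-fold above. With all 56 wells it was 2.05, and 6 members were detected in every well. A pseudocount of 10 gave 1.52. At 10 CPM, 44 members were detected in every well, and at 16-fold 29 were below. Pearson gave a median pairwise correlation of 0.21.

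Chosen after seeing the data: under a spike-in share of 5% the median SD of members was 0.86 (0.92 thinned), at 5% or more 2.02 (2.13 thinned, 2.10 without C10 and C11), where 8 members (8 thinned, 8 without C10 and C11) reached 50% of the sum. Medians in place of sums gave 0.57 against the translation list. Over all wells, leaving out C10, C11 or both moved no value past these limits. The causes were not tested. No paired analysis was possible because the wells form 1 group with no pairs. Depth limits statements on *Rpl22l1*, *Rps19bp1* and *Rpl7l1*, which had under 20 CPM in the median well.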

Other observations

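Among genes that are not members, those whose CPM followed the member sum most closely over the 46 wells were *S100a6*, a calcium-binding protein gene (Spearman correlation 0.63), *Gm3699* (0.60), *Gm10180* (0.57), *Gm10076* (0.54), *Rpl31-ps13* (0.53), *mt-Rnr2*, the large mitochondrial ribosomal RNA (0.52), *Gm10736* (0.52), *Rpl31-ps14* (0.49), *Gm5921* (0.48) and *Gm10247* (0.48). Of these, 8 shared stretches of 50 bases with a member: *Gm3699*, *Gm10180* and *Gm10736* held only stretches that *Rpl41* also holds (100%), and *Gm10076* shared 69.9% of its stretches with members, mostly *Rpl41*. *S100a6* and *mt-Rnr2* shared none. The lowest correlations were those of *Spag9* (−0.54), *Ankrd12* (−0.54), *Gm7803* (−0.52), *Rchy1* (−0.52) and *Dhx36* (−0.51). Both ends are the extremes of 4967 genes that passed limits on mean CPM and on the wells with detection. Extremes of so many genes can be large by ranking alone, and how large was not tested.

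Against the median member in place of the sum, a measure added after the values were seen, the protein-coding genes among the 10 most alike were *Cycs*, which encodes cytochrome c (0.84), *Gm10053* (0.83), *Rack1* (0.82), and *Uqcc2* (0.76) and *Uqcr10* (0.76), which encode an assembly factor and a subunit of respiratory complex III. *Cycs*, *Gm10053*, *Uqcc2* and *Uqcr10* shared no stretch of 50 bases with a member. These too are extremes of the same 4967 genes. All these values share the libraries' totals and depth, and they are descriptions over 46 wells.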
